A study of Mus musculus with 2 samples.

Results

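Cell adhesion and axon guidance genes with H3K27me3 were described in rib chondrocytes, the cartilage cells of the ribs. They were taken from the H3K27me3 region list of this series as the genes whose symbol belongs to the cadherin, protocadherin, Celsr, semaphorin, plexin, Slit, Robo, Eph, ephrin, netrin, netrin-G, Unc5, neurexin, neuroligin, contactin, Lrrtm, Flrt or Slitrk families, and Cdh22 was left out. This gave 15 genes with 21 regions, out of 922 genes and 2017 regions in all. Cdh22 had 10 regions, more than any of the 15 genes, and these were counted among the other regions. H3K27me3, histone H3 that bears a trimethyl group on lysine 27, is made by PRC2 and is found on repressed chromatin. In ChIP-seq, an antibody captures DNA bound to marked histones before it is sequenced, and each read is called a tag. The series comprised 1 H3K27me3 ChIP library and 1 input library, which is the same kind of chromatin without the antibody. Both came from wild-type CD1 mice at postnatal day 2.5, and the cells of 11 animals were pooled and cultured overnight in DMEM with 5% FCS. Pooled cells kept in culture stand for neither a single animal nor intact cartilage, and the labels of both libraries carry no mutation or drug. There were no replicates, so no difference below has a replicate check, and the intervals cover counting error only. The paper cites a further series for its ChIP-seq and reports more genes with H3K27me3 than the 922 named here. A gene absent from this list may therefore be among those the paper counts.

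The 2017 regions held 143822 ChIP tags and 19260 input tags, which gives 7.47 ChIP tags per input tag. This ratio, like all those below, was not corrected for sequencing depth, as the list holds no library totals. The height of the smoothed ChIP profile was at least 8 in every listed region, and the fewest ChIP tags in a region were 20, so weaker signal was not listed. A region was tied to every gene within 5000 bp, which gave 1535 region-gene pairs. Of 11 symbols of chondrocyte markers, Col2a1, Acan and Sox9 among them, 0 were named by a region, and of 17 markers of other cell types only Col1a1 and Tubb3 were, as was Ihh among 4 hypertrophic markers. Of all 21900 protein-coding symbols of RefSeq 3.61% were named, so counts from marker lists this short say little about cell type. A list of marked regions cannot show which genes the cells expressed.

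Axon guidance proteins are ligands and receptors that steer growing nerve fibres and also act in blood vessels, kidney and the developing skeleton. Slit proteins signal through Robo receptors, netrins through Dcc and Unc5, semaphorins through plexins and neuropilins, and ephrins through Eph receptor tyrosine kinases. Cadherins, contactins and neurexins hold cells together, many of them at nerve cell contacts. Genes of other lineages are common carriers of H3K27me3, which PRC2 keeps on silent promoters rich in CpG dinucleotides.

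By symbol, the RefSeq gene table held 196 protein-coding genes of these families without Cdh22, and 15 of them (7.65%) were named by a region. Among all 21900 protein-coding symbols of the same table, 3.61% were named. The families were chosen with earlier results of these data known, so the difference between these shares is no independent result. Genes of 10 of the 20 families had a region. Guidance ligands gave 6 of 37 genes in their families, ephrin-B and netrin-G ligands included, namely Slit1, Slit3, Ntn1, Sema5b, Sema6b and Efna3. Guidance receptors gave 5 of 33, plexins and Unc5 symbols included, namely Epha3, Epha8, Epha10, Ephb1 and Robo3. Adhesion molecules gave 4 of 126, which counts the protocadherins and all remaining families, namely Cdh1, Cdh4, Cntn2 and Nrxn2. The share of the adhesion molecules thus lay below the 3.61% of all protein-coding symbols, and those of the ligands and receptors lay above it. These differences were not tested. No region named any of the 69 protocadherins, 57 of which lie in the clustered Pcdha, Pcdhb and Pcdhg arrays, and the other families without a region were plexins, Celsr, ephrin-B, netrin-G, Unc5, neuroligin, Lrrtm, Flrt and Slitrk. The 10 families without a region held 108 of the 196 genes, and signal there below the list's limits was not detectable. Family membership went by the start of the symbol. The 13 contactin symbols therefore included 7 contactin-associated Cntnap symbols, 0 of them named, and the 6 Unc5 symbols may include genes that are not receptors. The families were compared by symbol, and of the 922 names in the list 832 were symbols of the RefSeq table. Of these names 790 were protein-coding symbols and entered the 3.61%, whereas all 15 member names matched. A region anywhere in a gene or within 5000 bp names it, and gene length was not taken into account.

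**Figure D1:**
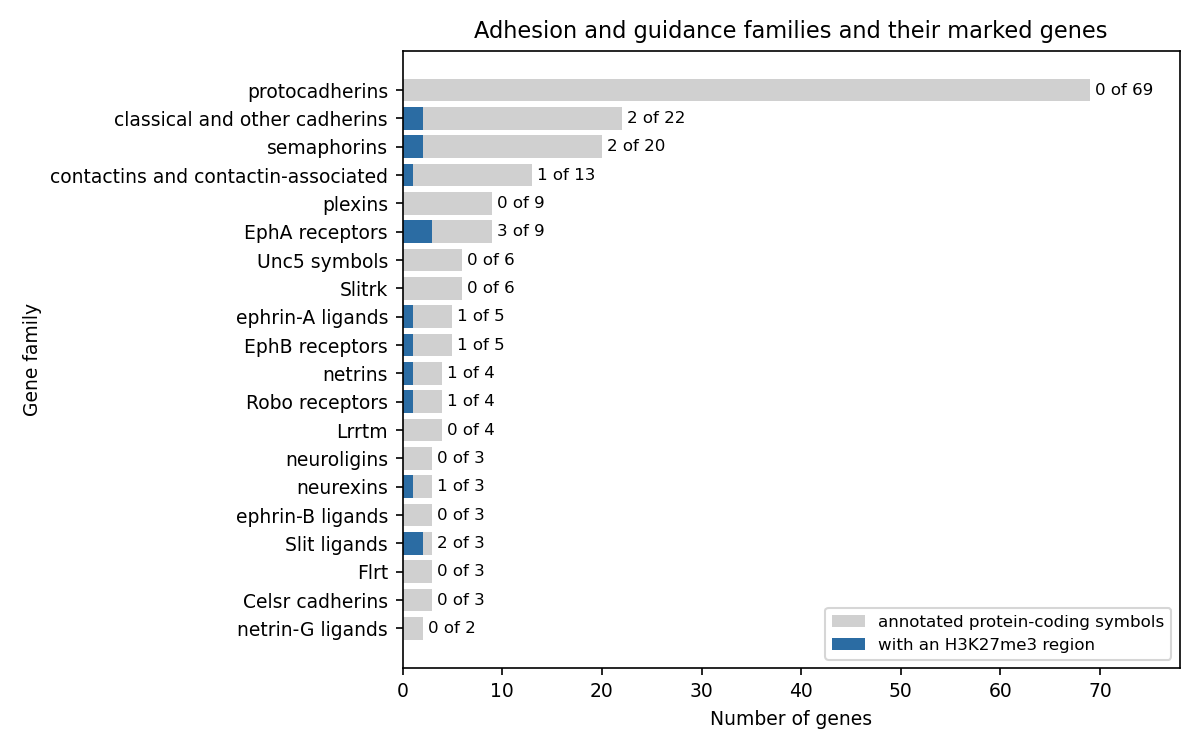
Number of protein-coding genes in each of the 20 families (grey bars, RefSeq symbols without Cdh22) and the number named by an H3K27me3 region (blue). The EphA receptors show 3 of 9 genes with a region and the Slit ligands 2 of 3, whereas the 69 protocadherins show 0.

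The promoters of the marked genes were looked at for CpG, the dinucleotide in which PRC2 targets are usually rich. RefSeq promoter windows of build GRCm38.p6 were matched by symbol for 10 of the 15 genes, with 12 windows in all, and the 250 bases before the gene start were used. The genes without a match were Cdh1, Cdh4, Nrxn2, Ntn1 and Slit1. The following windows are shown because Sema5b, Epha8 and Epha10 had the regions nearest to the gene start among the matched genes, and Cntn2 had the highest ChIP profile of all 15 genes. They read 5′ to 3′ on the strand of the gene, with every CG in capitals.
Sema5b, chr16:35541112-35541361, plus strand: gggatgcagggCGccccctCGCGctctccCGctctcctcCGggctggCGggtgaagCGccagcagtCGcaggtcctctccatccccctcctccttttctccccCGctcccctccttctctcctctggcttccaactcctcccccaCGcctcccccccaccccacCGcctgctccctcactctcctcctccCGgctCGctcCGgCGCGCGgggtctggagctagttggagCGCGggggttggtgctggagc
Epha8, chr4:136956817-136957066, minus strand: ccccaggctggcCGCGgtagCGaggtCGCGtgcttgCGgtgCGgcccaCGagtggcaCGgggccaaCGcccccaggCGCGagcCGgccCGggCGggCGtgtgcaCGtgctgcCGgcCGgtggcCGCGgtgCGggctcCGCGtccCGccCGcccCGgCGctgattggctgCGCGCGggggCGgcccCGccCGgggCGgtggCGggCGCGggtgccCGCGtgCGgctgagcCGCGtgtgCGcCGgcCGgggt
Epha10, chr4:124881535-124881784, plus strand: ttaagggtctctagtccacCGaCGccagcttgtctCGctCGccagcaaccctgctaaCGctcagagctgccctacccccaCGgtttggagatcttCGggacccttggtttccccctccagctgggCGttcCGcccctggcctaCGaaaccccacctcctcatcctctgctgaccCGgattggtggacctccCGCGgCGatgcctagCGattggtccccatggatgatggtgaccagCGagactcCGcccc
Cntn2, chr1:132542941-132543190, minus strand: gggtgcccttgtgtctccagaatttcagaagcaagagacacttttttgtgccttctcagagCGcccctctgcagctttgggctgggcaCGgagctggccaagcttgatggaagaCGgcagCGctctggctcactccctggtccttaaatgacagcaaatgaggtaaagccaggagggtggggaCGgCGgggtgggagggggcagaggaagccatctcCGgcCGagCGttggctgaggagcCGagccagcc

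These windows held 19 CG in Sema5b, 46 in Epha8, 17 in Epha10 and 10 in Cntn2. The motif searched was CG, which reads the same on both strands. The 12 member windows held a median of 18 CG (range 5 to 46), against 6 in all 32851 windows, of which 92.1% held at least 1 CG. For the other genes of the region list the median was 13, and for the genes of the same families without a region it was 12. Epha8 had more CG than 99.7% of all windows, and the lowest member value belonged to 1 of the 2 windows of Sema6b. The median GC content was 63.6% in the member windows and 52.4% in all windows. Of the 12 windows, which cover 10 of the 15 genes, 11 were above the median of all windows, and Cntn2 and Ephb1, with 10 CG each, were the lowest of these. None of these differences was tested. The list is on mm9, so the windows and the regions were not placed on the same coordinates. By the distances in the list, the nearest upstream region ended 977 bp before the gene start, at Sema5b. No member region therefore reached the 250 bases before the starts used in the list. The CG counts describe promoters and not the sequence of the regions.

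None of the 21 regions covered the 5′ end of its gene, whereas 6.06% of all region-gene pairs did. The regions lay inside the gene in 15 cases (56.9% of all pairs overlapped the gene) and upstream of it in 6 (26.8%). None lay beyond the 3′ end (16.3%). The nearest was in Cdh1, 503 bp from the 5′ end, followed by regions at 977 bp in Slit1 and 977 bp before Sema5b. Within 2500 bp of the 5′ end lay 5 of the 21 regions (40.7% of all pairs), 1 each at Cdh1, Slit1, Sema5b, Epha8 and Epha10. The direction depended on the limit, since within 5000 bp lay 15 of the 21 (71.4%), against 64.9% of all pairs. The farthest lay 324354 bp into Cdh4, 153673 bp into Slit3, and 118874 bp and 84923 bp into Slit1. The median distance was 3612 bp, against 3413 bp for all pairs. For the 4 genes with several regions, the distances in the list all pointed to a single gene start, which was 41818346 on chromosome 19 for Slit1 and 35541448 on chromosome 16 for Sema5b. Whether a region lay in an exon or an intron is not given in the list.

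**Figure D2:**
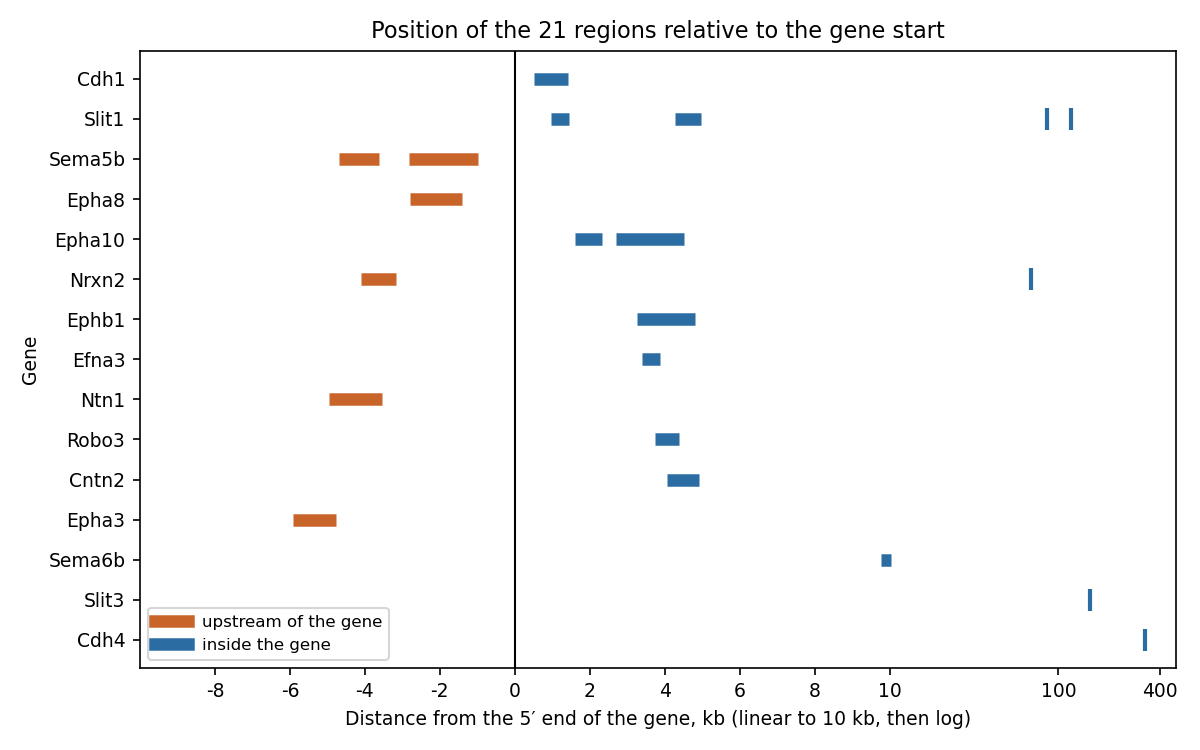
Position of the 21 regions relative to the 5′ end of their gene in kb, linear up to 10 kb and logarithmic beyond. Orange bars lie upstream and blue bars inside the gene, bar length is region length, and regions beyond 40 kb are drawn as ticks; no bar crosses 0, and the nearest begins 503 bp inside Cdh1.

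Slit1, a secreted ligand of Robo receptors, carried the most regions of the 15 genes, with 4 inside the gene on chromosome 19 (mm9) covering 3013 bp. From the 5′ end inwards, tag numbers in ChIP and input were 28 and 3 at 41816892 to 41817369, 37 and 9 at 41813377 to 41814079, 64 and 10 at 41732347 to 41733423, and 40 and 6 at 41698718 to 41699472. They were spread over 118652 bp, with a gap of 79953 bp between those near the gene start and those deep in the gene. The same order gave ChIP to input ratios of 9.33 (95% interval by the Clopper-Pearson method, 2.88 to 48.0), 4.11 (1.95 to 9.69), 6.40 (3.26 to 14.0) and 6.67 (2.81 to 19.2), all of which overlap. The whole gene had 169 and 28 tags and a ratio of 6.04 (4.03 to 9.36). Slit3, its paralog, had a region of 490 bp deep in the gene on chromosome 11, from 35088631 to 35089120, with 33 ChIP tags and 3 input tags. Its deposited ratio (tag enrichment) of 7.32 was the highest of the 21 regions, and 98.1% of all regions had a lower one. In that column the input is set to at least 9.20 tags per kb, and Slit3 had 6.12, so the value reflects its 67.3 ChIP tags per kb. No region named Slit2, the remaining Slit gene.

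Sema5b, a membrane semaphorin with thrombospondin repeats, had the strongest signal by the caller's rank. Upstream of the gene on chromosome 16, 123 ChIP tags fell between 35538613 and 35540471 and 76 between 35536753 and 35537836, each with 14 input tags. They ranked 93 and 281 among the 2017 regions, with −log10 q-values of 140 and 93.3, while the other 19 regions ranked from 669 to 1898. Their ratios were 8.79 (95% interval 5.04 to 16.5) and 5.43 (3.05 to 10.4), which overlap. Both had dense ChIP signal, with 66.2 and 70.1 ChIP tags per kb against a median of 54.4 in the other 1996 regions. Another 2 listed regions lay farther upstream and named no gene, 1 of 3000 bp at a gap of 557 bp from Sema5b's nearest region, with 143 and 32 tags in ChIP and input, and 1 of 756 bp with 38 and 6. Together these 4 regions spanned 11069 bp and had a ratio of 5.76 from 380 and 66 tags (4.42 to 7.60). Sema6b, another membrane semaphorin, had a single region inside the gene on chromosome 17, from 56263109 to 56263522, with 25 ChIP tags and 2 input tags. The same region lay 1740 bp from Lrg1, so it cannot be assigned to Sema6b alone. It was the lowest in rank of the 21.

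Ntn1, the secreted ligand of Dcc and Unc5 receptors, had a region upstream of the gene on chromosome 11, from 68203870 to 68205278, with 74 ChIP tags and 14 input tags. Its ratio was 5.29 (95% interval 2.96 to 10.1). A further region that named no gene lay 1785 bp away, with 69 ChIP tags and 5 input tags. Efna3, a membrane-anchored ligand of EphA receptors, had a region of 484 bp inside the gene on chromosome 3, from 89122939 to 89123422. With 29 ChIP tags over 2 input tags its ratio was 14.5 (3.67 to 125), an interval whose width shows how little 2 input tags can tell.

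Among the guidance receptors, EphA genes had the highest measured ratios of the 15 genes, with few input tags in their regions. In the deposited ratio, which sets their input to the floor, this order was lost. It was 5.87 at Epha3, 5.54 at Epha8 and a median of 5.31 over the regions of Epha10. All were below the 7.32 of Slit3, and the median of the other 1996 regions was 5.70. ChIP tags per kb were not high, at 54.0 in Epha3, 51.0 in Epha8, and 51.6 and 46.1 in Epha10. The median of the other regions was 54.4. Epha3, a receptor for ephrin-A ligands, had a region upstream of the gene on chromosome 16, from 63868743 to 63869908, with 63 ChIP tags and 2 input tags. Its ratio of 31.5 (95% interval 8.37 to 266) was the only interval of a gene to lie wholly above the 7.47 of all regions. The next listed region on the chromosome was 22417238 bp away. Epha8, a receptor of the same class, had a region upstream of the gene on chromosome 4, from 136514137 to 136515528, with 71 ChIP tags and 4 input tags and a ratio of 17.8 (6.64 to 66.9). It was not alone, since 4 more regions lay within 100 kb. The closest began 5843 bp away, and the largest of them, 3588 bp long, held 168 ChIP tags and 35 input tags and named no gene.

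Epha10, an Eph receptor without kinase activity, had regions inside the gene on chromosome 4 with only 357 bp between them. From 124560644 to 124561360 there were 37 ChIP tags and 0 input tags, which gives no ratio but a lower limit of 9.54 by the same 95% interval. From 124561718 to 124563541 there were 84 and 8, a ratio of 10.5 (95% interval 5.09 to 25.1). Over both, the ratio was 15.1 (7.44 to 35.8). Ephb1, a receptor for ephrin-B ligands, had a region inside the gene on chromosome 9, from 102252167 to 102253701, with 74 ChIP tags and 10 input tags. Its ratio of 7.40 (3.81 to 16.1) lay close to that of all regions. Robo3, the Robo receptor known for axons that cross the midline, had a region of 631 bp inside the gene on chromosome 9, from 37236384 to 37237014, with 35 ChIP tags and 4 input tags. Its ChIP height of 8.09 was the lowest of the 21, just above the limit of the list. Hepacam, an adhesion molecule of glia and a neighbour of Robo3, was named by 2 regions with 51 and 26 ChIP tags and 2 input tags each, the nearer at 41102 bp.

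Of the adhesion molecules, Cdh1 had the lowest ratio. Cdh1 encodes E-cadherin, the adhesion molecule of epithelia. Its region on chromosome 8, from 109127771 to 109128680, lay closest to a gene start of all 21 and held 48 ChIP tags and 17 input tags. The ratio of 2.82 (95% interval 1.59 to 5.24) was the only interval of a gene to lie wholly below 7.47, and 0.694% of all regions had a lower deposited ratio. Its ChIP density was ordinary, at 52.7 tags per kb, whereas its 18.7 input tags per kb exceeded those of 98.5% of regions. It was the only one of the 21 at or above 2 times the input floor (1.59% of all regions), and what raised the input was not tested. Cdh4 encodes R-cadherin of the nervous system. Its region on chromosome 2, from 179501537 to 179502543, had 48 ChIP tags over 10 input tags, which is 4.80 (2.40 to 10.6).

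Cntn2, a contactin of axons, had a region inside the gene on chromosome 1, from 134434606 to 134435462, with 50 ChIP tags and 6 input tags and a ratio of 8.33 (95% interval 3.57 to 23.8). With a height of 10.4 it was the only one of the 21 to reach a ChIP height of 10 (13.1% of all regions). A region of the adhesion gene Nfasc, with 40 ChIP tags and 2 input tags, lay 23015 bp away. Nrxn2, a presynaptic partner of neuroligins, had a region upstream of the gene on chromosome 19, from 6423905 to 6424858, with 54 ChIP tags and 10 input tags, and another 68047 bp into the gene, from 6496063 to 6496475, with 26 and 4. Their ratios of 5.40 (2.72 to 11.9) and 6.50 (2.26 to 25.6) overlap. The adhesion genes thus ranged from a ratio of 2.82 at Cdh1 to 8.33 at Cntn2, and the interval of Cdh1 overlaps those of Cdh4, Cntn2 and Nrxn2.

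**Figure D3:**
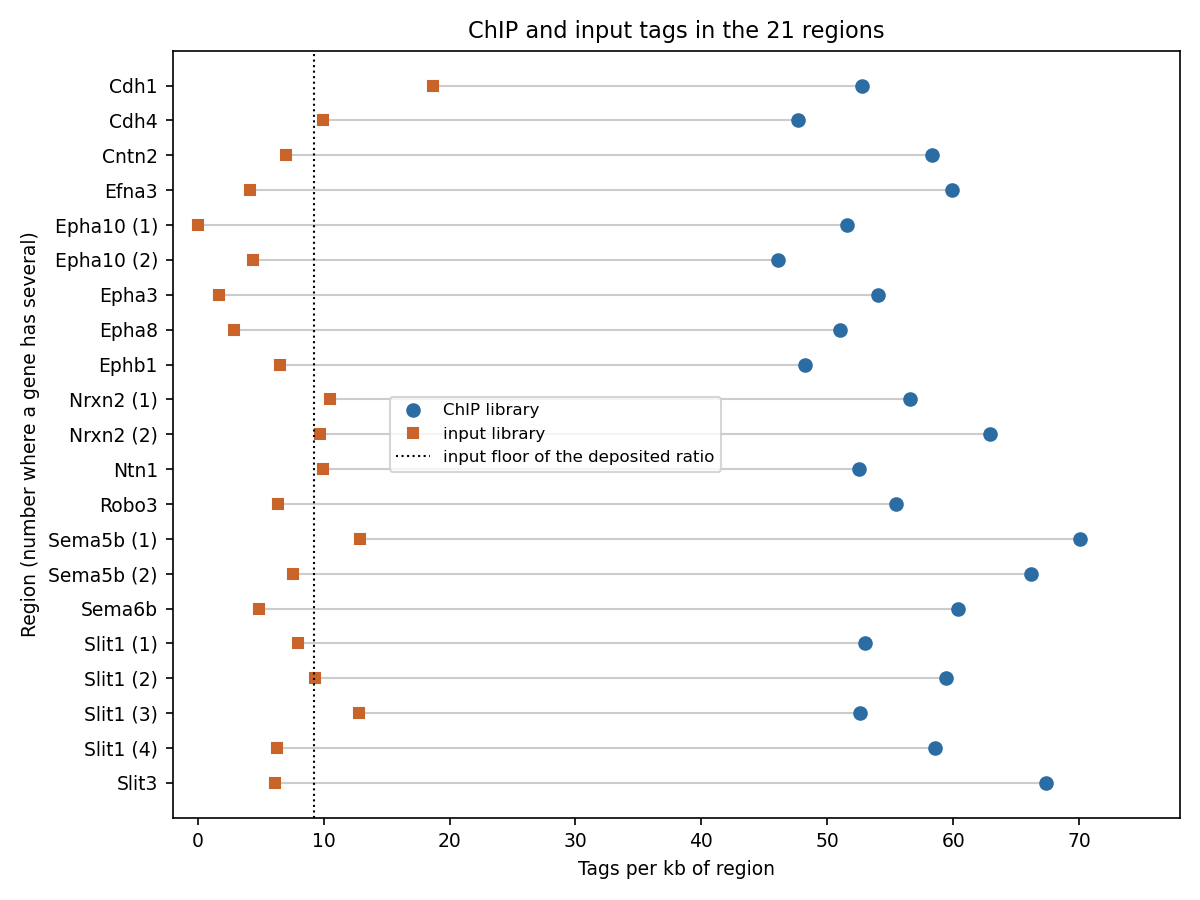
ChIP tags (circles) and input tags (squares) per kb in each of the 21 regions, with 1 library each. ChIP density ranges from 46.1 to 70.1 tags per kb, whereas input ranges from 0 at Epha10 to 18.7 at Cdh1, and the dotted line marks the floor of 9.20 input tags per kb used in the deposited ratio.

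Set side by side by role, a grouping made with the values known, the receptors had a ratio of 13.0 from 364 and 28 tags (95% interval 8.84 to 19.8), and the adhesion genes had 4.81 from 226 and 47 (3.50 to 6.73). The ligands lay between them with 529 and 77, a ratio of 6.87 (5.40 to 8.84). The receptors had 3.85 input tags per kb and the adhesion genes 11.3, while ChIP tags per kb were 50.1 and 54.6. Receptors and adhesion genes therefore differed more in input than in ChIP density. Without Epha3 the receptors had a ratio of 11.6 (7.75 to 18.0), and without Cdh1 the adhesion genes had 5.93 (4.01 to 9.05), so that the intervals then overlap. Overlap does not show that the ratios were alike. Epha3 had the highest ratio of the 15 genes and Cdh1 the lowest, so leaving them out narrows the gap. In the deposited ratio, where the floor replaces low input, the medians were 5.58 for the receptors and 5.40 for the adhesion genes, and the ligands were highest with 6.38.

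**Figure D4:**
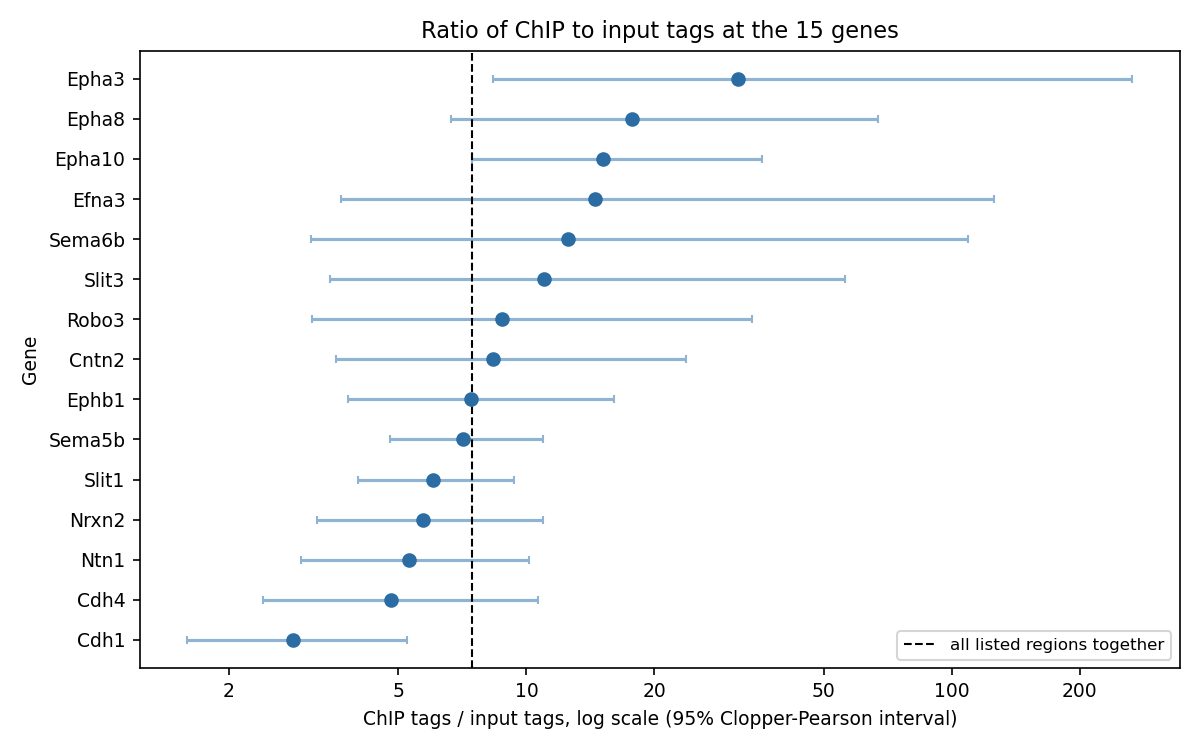
Ratio of ChIP to input tags summed over the regions of each of the 15 genes on a log axis, with 95% Clopper-Pearson intervals of counting error. The dashed line is the 7.47 of all 2017 regions; Epha3 lies wholly above it, Cdh1 wholly below it, and the intervals of the other 13 genes include it.

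Over all 21 regions, the ratio at adhesion and guidance genes was 7.36, from 1119 ChIP and 152 input tags (95% interval 6.21 to 8.78), against 7.47 (7.36 to 7.58) in the other 1996 regions. The intervals overlap, and they leave room for a difference in either direction. The regions covered 20159 bp, or 0.759% of the sequence in regions. They were short, with a median of 910 bp (range 413 to 1859) against 1069 bp in the other regions, and none reached 2000 bp, a length met by 16.5% of all regions. The median height was 8.70, against 8.68, and 7 of the 21 had a height of at least 9 (35.3% of all regions). The median −log10 q-value was 39.3, against 48.1. The medians of tag density were 55.5 ChIP tags per kb against 54.4 and 7.001 input tags per kb against 6.19. The deposited ratio had medians of 5.76 and 5.70, and it rested on the input floor in 13 of the 21 regions (76.9% of all regions). Of the 15 genes, 4 had more than 1 region (36.4% of all genes in the list).

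**Figure D5:**
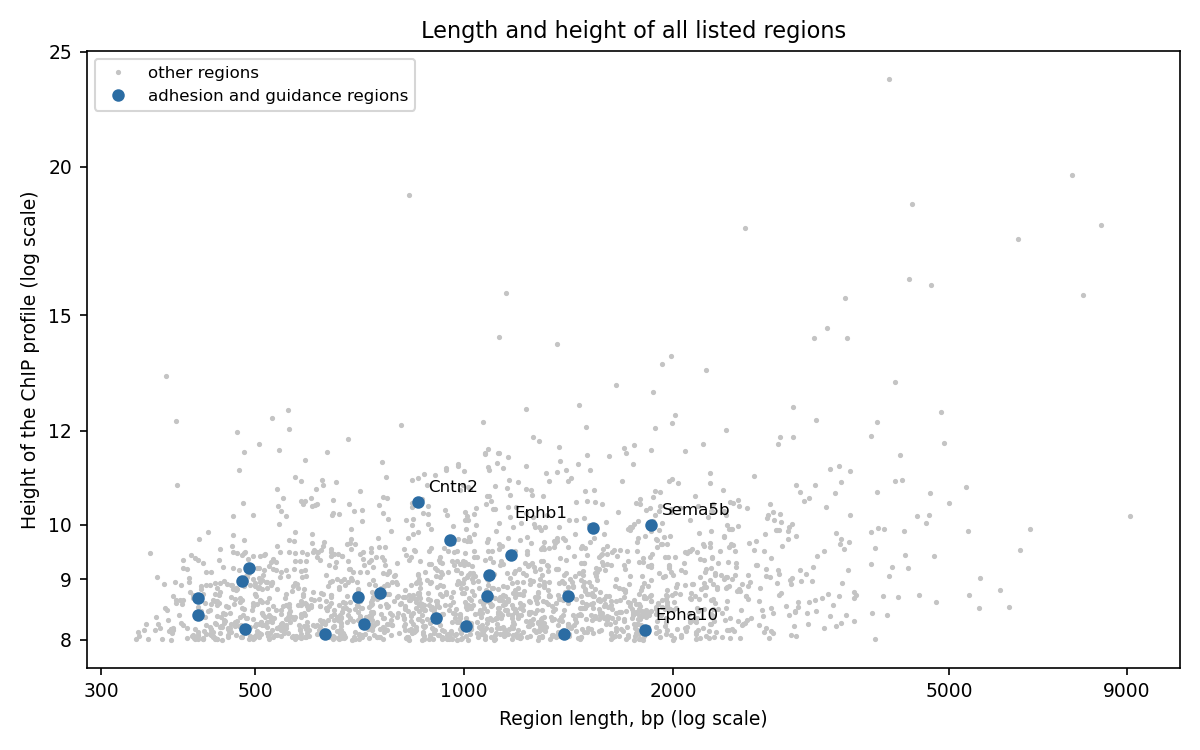
Region length in bp against the height of the ChIP profile, both on log axes, for the 21 adhesion and guidance regions (blue) and the other 1996 (grey). The blue points stay below 2000 bp and, apart from Cntn2 at 10.4, below a height of 10.

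Other adhesion and guidance genes were looked up from a list of 98 symbols outside these families. Of these, 9 (9.18%) were named by a region, beside 3.61% of protein-coding symbols. The 98 symbols were chosen with earlier results of these data known, so this share is no independent check. Nfasc, Dscaml1, Sdk1 and Kirrel2, members of the immunoglobulin superfamily, were named with 84, 78, 37 and 107 ChIP tags and 4, 20, 3 and 19 input tags. The region of Dscaml1 covered the 5′ end of the gene. For Kirrel2, Nfasc and Sdk1 the nearest region lay 273, 537 and 933 bp from the 5′ end. Cxcl12, a chemokine that also guides migrating cells, had 27 ChIP tags and 2 input tags. Lrfn2 and Lrrc4b, leucine-rich repeat proteins of synapses, had 27 and 123 ChIP tags with 0 and 14 input tags. Cbln1 and Nxph4, secreted partners of neurexins, had 124 and 31 ChIP tags with 14 and 0 input tags. In Cxcl12, Cbln1, Nxph4, Lrrc4b and Lrfn2 the nearest region lay 799, 1779, 2889, 4125 and 66022 bp from the 5′ end. The netrin receptor Dcc, the semaphorin co-receptors Nrp1 and Nrp2, the latrophilins, the teneurins (Odz symbols) and the 19 integrins of the list were named by no region.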

How the data were processed

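The H3K27me3 ChIP and input libraries of rib chondrocytes were sequenced, and the authors mapped reads to mm9 (per the labels) with the DNAnexus mapper and called regions with QuEST. Versions, settings and the gene annotation are not given in the sources used here. The labels and the methods differ in the serum percentage and the ChIP kit. The deposited counts are whole tags per region, not scaled for depth. The deposited signal is the height of the smoothed profile, the deposited ratio is ChIP over input with a floor on the input, and the q-values were deposited as −log10.

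The floor came to 9.20 input tags per kb in every region on it only when both ends were counted in the length (spread 9.20174 to 9.20176), so positions include both ends. An input within 0.01 tags of that used counted as measured. Gene symbols were matched to the pattern of families. The members, lists and alternatives were chosen with earlier results of these data known. All 15 genes are described, and no test was run, since each group had 1 library. Ratios of summed tags were given 95% Clopper-Pearson intervals, which treat tags as independent; 20 to 723 ChIP tags per region set the precision. The interval was also run on simulated counts, which were drawn as independent tags too, so the simulation could not check that assumption. Gene and promoter sequences came from RefSeq (GRCm38.p6), by symbol only. The software was Python 3.11.15 with scipy 1.17.1 for intervals, pandas 2.3.3 and numpy 2.4.6 for tables, and matplotlib 3.10.9 for plots.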

Additional observations from a re-analysis of the deposited data

How the results depend on the processing

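Counts depended on the height and distance limits. With a ChIP height of at least 9, 6 genes with 7 regions and 7945 bp were left, namely Cntn2, Epha3, Ephb1, Nrxn2, Sema5b and Slit3, and with at least 10 only Cntn2 was left, 1 region of 857 bp, which put the share within 2500 bp of a 5′ end at 0%. With regions overlapping the gene, 12295 bp were left. With regions within 2500 bp of the 5′ end, 5 genes, 5 regions and 5356 bp were left, and counting to 5000 bp instead raised the share from 23.8% (40.7% of all pairs) to 71.4% (64.9%). The other 16 values of the pooled ratio, counts, sequence and share moved by less than 1.5 times or stayed within the main interval. Not all of them could move. Merging regions of a gene within 3000 bp left 18 regions and 24104 bp, but it cannot change the number of genes or the pooled ratio. The pooled ratio of 8.33 at a height of at least 10 was that of the Cntn2 region alone. With input below 2 times the floor, Cdh1 had no region left and the pooled ratio was 7.93. By the median deposited ratio, Epha10 (5.31), Epha3 (5.87) and Epha8 (5.54) fell below their intervals, since the floor replaces their low input. Leaving out Epha3 or Cdh1 from its group was chosen after seeing the data.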
